A study of Mus musculus with 6 samples.

Results

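The inflammatory caspases and the interleukin-1 (IL-1) family are described here by 10 genes, which are Nlrp3, Casp1, Casp4, Casp12, Gsdmd, Il1a, Il1b, Il18, Il1rn and Il1rl1. Their spots were taken by gene name from 6 single-color Agilent arrays. The 10 genes had 14 probes on 32 non-control spots, of 36916 named genes, 55681 probes and 59305 spots. Of these 32 spots, 2 lay in the central block of the array, the middle one of a 3 by 3 division of its rows and columns, and are reported apart.

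The arrays compare a pair of mouse microvascular endothelial cell lines. 1G11-SOD3 cells (SOD3 overexpression) were set against 1G11-mock cells (no SOD3 overexpression), both of strain C57BL/6NCrLBR, with 3 arrays each. Sod3 encodes extracellular superoxide dismutase. All cells had spent 6 h in medium conditioned by N202.1A murine mammary cancer cells, so no array shows either line without that medium. Whether each line is 1 clone is not given in the sources used here. All 1G11-mock arrays came from slide row 2 and all 1G11-SOD3 arrays from slide row 1, so cell line and slide row cannot be told apart.

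Nlrp3 is a sensor that assembles, with an adaptor, the protein complex called the inflammasome, which activates caspase-1. Caspase-1 processes the precursors of IL-1β and IL-18 and cleaves gasdermin D, whose fragment forms pores in the plasma membrane, whereas mouse caspase-11, the product of Casp4, senses cytosolic lipopolysaccharide and cleaves gasdermin D directly. Endothelial cells are known to respond to IL-1 and, in lipopolysaccharide exposure, to undergo this form of lytic death. A transcript level says nothing on whether a caspase is active or a cytokine is processed.

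Values are log2 intensities after background correction and quantile normalization. A probe was called when the lines differed by more than 2-fold with an adjusted p under 0.05 (limma with Benjamini-Hochberg adjustment over all probes). The scanner software marked 34.2% to 43.8% of the spots of an array as well above background and 0 as saturated. In the central block, differences (1G11-SOD3 minus 1G11-mock) were shifted upward. Of 116 probes with copies both inside and outside it, 116 had a higher difference inside, by a median of 1.69 log2 units. Which line's signals moved was not tested over these probes. The central Gsdmd copy, with outlier readings kept, had uncorrected intensities of 5250, 3510 and 800 in 1G11-mock, below every other copy on those arrays. In 1G11-SOD3 it had 11000, 6990 and 12000, within the range of the other copies. A position adjustment, which divides each signal by a smooth surface fitted per array, is therefore given beside the main values. The Sod3 probe lay in the central block too. Its log2 intensities were 13.61, 12.66 and 9.86 in 1G11-mock and 16.37, 16.30 and 16.26 in 1G11-SOD3, a difference of 4.27 (limma adjusted p = 0.0079) and of 2.76 after position adjustment. With 1 array left out the Sod3 difference ranged from 3.17 (without 1G11-mock replicate 3) to 5.05 (without 1G11-mock replicate 1), and without 1G11-SOD3 replicate 3 it was 4.29 with an adjusted p of 0.0518 in limma, which misses the call.

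The endothelial label was only partly borne out by marker transcripts. The study that reported these arrays states that VE-cadherin staining was used regularly to check the endothelial origin of 1G11 cells. Of 10 endothelial marker genes, 5 (Cdh5, Emcn, Erg, Tek and Tie1) were well above background on 0 of the 6 arrays, whereas Kdr (by 1 of its probes) and Eng were above it on all 6. Pecam1, encoding CD31, was above it on 2 arrays of each line. Egfl7 was the 1 endothelial marker called, higher in 1G11-SOD3 by 1.82 (limma adjusted p = 0.018), and after position adjustment it was not called, at 1.08 (limma adjusted p = 0.067). Of 8 epithelial markers, 3 (Cldn4, Epcam and Krt18) were above background on 0 arrays and 1 was called. The called gene, Krt14, a keratin of basal epithelial cells, read 8.71, 8.27 and 7.98 in 1G11-mock and 13.56, 12.53 and 13.35 in 1G11-SOD3. It was higher by 4.82 (limma adjusted p = 7.2e-05), with its spot in the central block, and stayed called at 2.32 after position adjustment (limma adjusted p = 6.4e-04). Krt19 was the 1 epithelial marker above background on all 6 arrays, reading 15.40 to 16.76, and differed by -0.52 (limma adjusted p = 0.48). Cdh1, encoding E-cadherin, was above background on 0 1G11-mock and 3 1G11-SOD3 arrays. Its values overlapped between the lines and differed by 0.30 (limma adjusted p = 0.59). Of 10 leukocyte and macrophage markers, 0 were called, and Ptprc, Lyz2, Tyrobp, Adgre1 and Cd68 were above background on 0 arrays. Cd14, Cd74, Csf1r and Itgam had 1 probe each above background on all 6 arrays. The part of leukocytes or epithelial cells in the values below was not tested.

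The probes that gave a measurable signal are shown by their first 30 of 60 bases, since the finding for Casp4 turns on how alike its probes are. Capitals mark the bases that both Casp4 stretches share.
Casp1, A_55_P1990944: ctatgctgagaatcgtgccaataagaagcc
Casp4, A_55_P1984168: CTAAGCAACACAGTGGGATTCTGTTccata
Casp4, A_55_P2091461: ccagcCTAAGCAACACAGTGGGATTCTGTT
Gsdmd, A_51_P172231: tgctagaagaatgtggcctaaggctgcagg
The Casp4 probes are shifted by 5 bases and share 55 of their 60 bases, so they read the same stretch of the same transcript and are not independent evidence. The array annotation, which names no genome build, places them on chromosome 9 at 5336663 to 5336722 and 5336658 to 5336717. It places the Casp1 probe at 5307206 to 5307265 and the Casp12 probe at 5372975 to 5373034 of the same chromosome. In the RefSeq table Casp1, Casp4 and Casp12 follow each other among the protein-coding genes of chromosome 9. The Gsdmd probe is placed on chromosome 15 at 75697536 to 75697595. The exon or untranslated region that each probe reads was not analysed here.

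Most of the family was near background in these cells. Only 3 genes with 4 probes were well above background on all 6 arrays: Casp1, Casp4 with both probes, and Gsdmd. Casp12 and Il1rn were above it on some arrays. The other 5 genes, Nlrp3, Il1a, Il1b, Il18 and Il1rl1, were above it on none by the probe (at least 50% of its spots), and their 8 probes read between 6.60 and 8.24. For comparison, the lowest probe that counted as well above background read 6.65 on 1G11-SOD3 replicate 3. On the other arrays it read between 7.74 and 8.0.

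**Figure D1:**
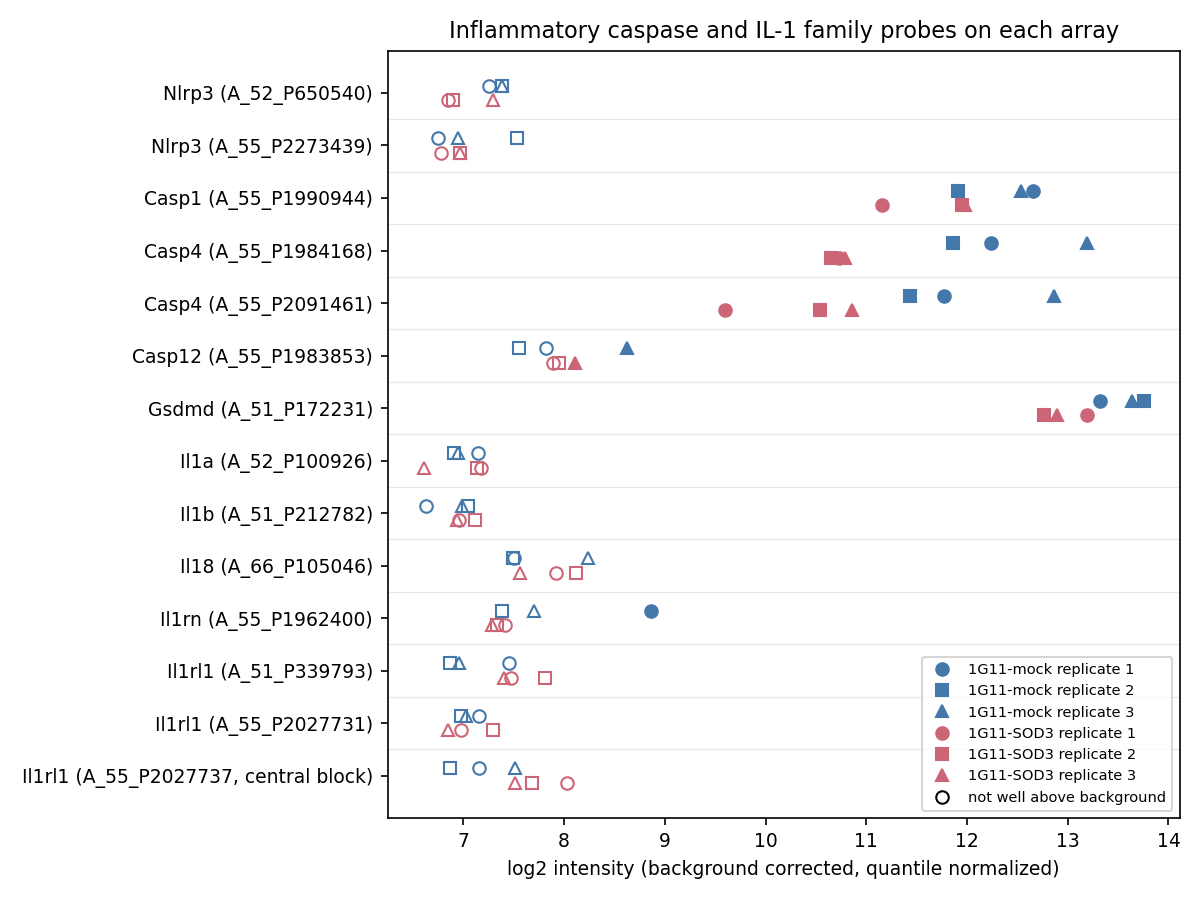
Log2 intensity (x axis) of the 14 probes of the 10 genes (y axis) on each of the 6 arrays, with 1G11-mock in blue, 1G11-SOD3 in red and a symbol shape per replicate. Filled symbols are well above background. The Casp1, Casp4 and Gsdmd symbols are all filled, and for both Casp4 probes every 1G11-SOD3 array lies below every 1G11-mock array.

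Casp4 was lower in 1G11-SOD3 by both of its probes. Probe A_55_P1984168 read 12.24, 11.86 and 13.19 in 1G11-mock and 10.73, 10.65 and 10.79 in 1G11-SOD3. The 1G11-SOD3 arrays lay close together and more than 1 log2 unit under the lowest 1G11-mock array. The means were 12.43 ± 0.69 and 10.72 ± 0.07 (SD, n = 3 each), a difference of -1.71 with an SE of 0.31 and a limma adjusted p of 0.014 (95% interval -2.40 to -1.02), or 3.27-fold lower. Probe A_55_P2091461 read 11.77, 11.44 and 12.87 in 1G11-mock and 9.60, 10.54 and 10.86 in 1G11-SOD3, again with no overlap. Its means were 12.02 ± 0.75 and 10.33 ± 0.66 (SD, n = 3 each). The difference was -1.69 with an SE of 0.40 and a limma adjusted p of 0.046 (95% interval -2.57 to -0.81), or 3.23-fold lower. On both probes replicate 3 of 1G11-mock was the highest array.

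These were the only calls among the 14 probes, 2 lower and 0 higher. Over the array 2.93% of the 55681 probes were called, 1.06% lower and 1.87% higher, and among the 16352 probes above background on all 6 arrays 3.04% were called lower and 2.78% higher. The arrays of the lines did not overlap for 4 of the 14 member probes, against 20.6% of all probes. All 4 member probes above background on every array, 2 of them the overlapping Casp4 probes, had a lower mean in 1G11-SOD3, with a median difference of -1.18. Over the 16352 probes of that kind the median was -0.13 and 60.6% had a lower mean.

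Neither Casp4 spot was in the central block of the array. Their spots lay in row 33, column 142 and in row 356, column 147, where the fitted position surface itself differed by -0.33 and -0.38 (1G11-SOD3 minus 1G11-mock). After position adjustment the differences were -1.42 (limma adjusted p = 0.027) for A_55_P1984168, which stayed called, and -1.36 (limma adjusted p = 0.052) for A_55_P2091461, which did not. Over 14 ways of processing all 6 arrays, A_55_P1984168 differed by -1.73 to -1.23 and was called in 14. A_55_P2091461 differed by -1.72 to -1.22 and was called in 6 of the 14. With 1 array left out, A_55_P1984168 was called in 4 of 6 fits, and the exceptions were those without 1G11-SOD3 replicate 1 (limma adjusted p = 0.052) and without replicate 3 (0.064). A_55_P2091461 was called in 0 of 6 such fits, with adjusted p values of 0.064 to 0.17 in limma and differences of -1.99 to -1.27.

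**Figure D2:**
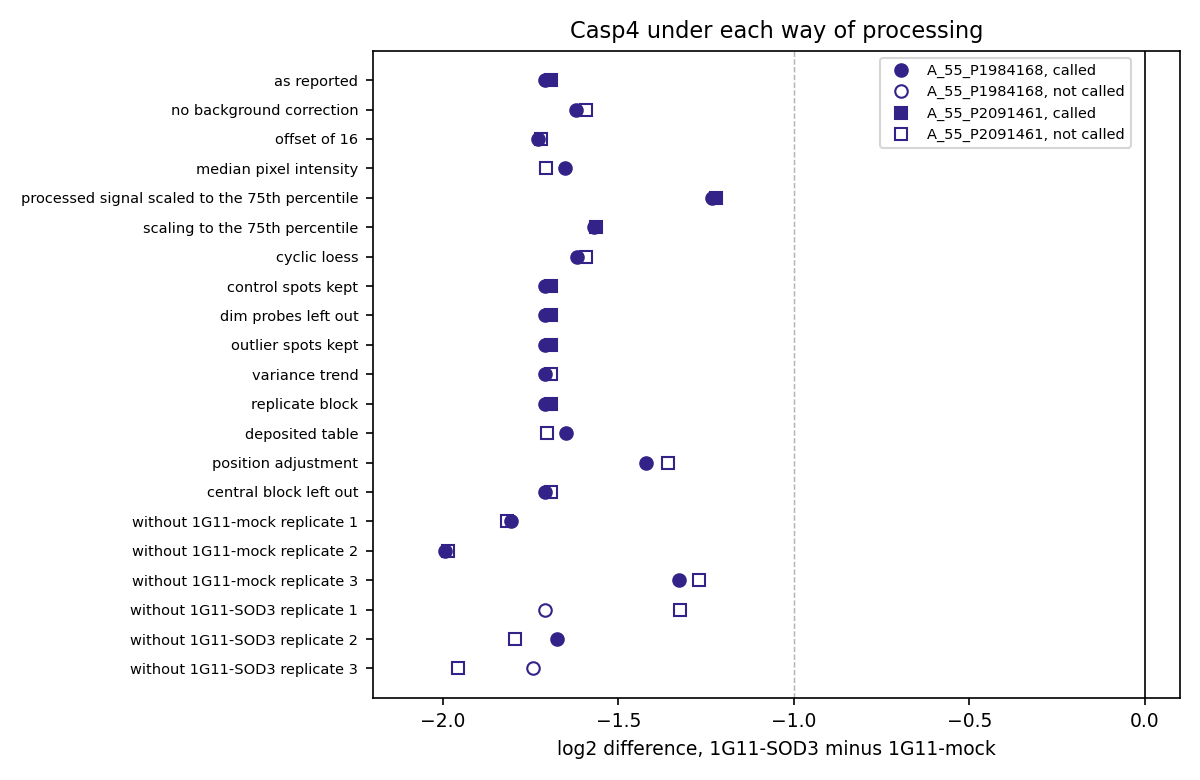
Difference of the Casp4 probes between the lines (x axis, log2, 1G11-SOD3 minus 1G11-mock) under each way of processing and with each array left out (y axis). Filled symbols were called and open ones were not, the dashed line marks 2-fold, and all points lie between -1.99 and -1.22.

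The stretch just before the Casp4 transcription start is shown because it held a match to 1 of 3 motifs sought, the κB motif of NF-κB, a transcription factor of inflammatory signaling. The 250 bases lie at chr9:5308599-5308848 on the plus strand (RefSeq, GRCm38.p6), and capitals mark the motif match.
Casp4 promoter: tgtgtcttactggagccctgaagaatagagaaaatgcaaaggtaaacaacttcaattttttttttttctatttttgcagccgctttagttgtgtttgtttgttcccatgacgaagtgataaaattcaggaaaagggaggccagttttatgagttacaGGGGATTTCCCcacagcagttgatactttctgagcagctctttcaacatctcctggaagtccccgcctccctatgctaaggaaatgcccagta
The capitals hold 2 overlapping matches to the κB motif, at 93 and 92 bases before the start. Promoters of 9 of the 10 genes were in the table (Gsdmd was not), and of these Nlrp3 had 1 match and the other 7 had 0. On either strand 3.75% of 27025 promoters held the motif. The interferon-stimulated response element was found in 0 of the 9 and in 3.04% of all promoters. The GAS element (TTCNNNGAA) was found in Casp12 with 2 matches and in 7.18% of all promoters. A motif match is a description of the sequence only, and binding was not measured.

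Casp1, the caspase of the canonical inflammasome, was measured on every array but did not pass the test. It read 12.65, 11.91 and 12.53 in 1G11-mock and 11.15, 11.95 and 11.98 in 1G11-SOD3. The lines overlapped, since replicate 2 of 1G11-mock was lower than replicates 2 and 3 of 1G11-SOD3, and replicate 1 of 1G11-SOD3 was the lowest of all. The means were 12.36 ± 0.40 and 11.69 ± 0.47 (SD, n = 3 each). The difference was -0.67 with an SE of 0.30 and a limma adjusted p of 0.33. Its 95% interval of -1.32 to -0.02 holds differences from near 0 to more than 2-fold. After position adjustment the difference was -0.48 (limma adjusted p = 0.31), and over the other ways of processing it ranged from -0.73 to -0.28.

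Casp12, a caspase of the same chromosomal cluster, was well above background on 1 array of each line, replicate 3 in both. It read 7.82, 7.55 and 8.63 in 1G11-mock and 7.89, 7.94 and 8.11 in 1G11-SOD3. The 1G11-SOD3 arrays all lay within the range of the 1G11-mock arrays, at levels where the arrays bound the signal rather than measure it. The difference was -0.02, and 0.32 after position adjustment (limma adjusted p = 0.44). The adjusted values were 7.96, 7.51 and 7.91 in 1G11-mock and 7.98, 8.06 and 8.32 in 1G11-SOD3, which no longer overlap.

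Gsdmd, the pore-forming substrate of the caspases, had 10 copies of 1 probe, of which 9 lay outside the central block and 1 inside it. The average of the copies was 13.32, 13.75 and 13.64 in 1G11-mock and 13.19, 12.76 and 12.90 in 1G11-SOD3. All 1G11-SOD3 arrays were below all 1G11-mock arrays, by a small margin. The means were 13.57 ± 0.22 and 12.95 ± 0.22 (SD, n = 3 each), a difference of -0.62 with an SE of 0.23 and a limma adjusted p of 0.23 (95% interval -1.13 to -0.11), so Gsdmd was not called.

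The copies of the Gsdmd probe did not all read alike. Outside the block, 9 of 9 copies had a lower mean in 1G11-SOD3, with differences from -1.39 to -0.22 and a median of -0.87. Outlier readings were left out, so not every copy compares 3 arrays with 3. The copy at -1.39 kept 1 1G11-mock value, 14.59 on replicate 3, and the copy at -0.22 lacked 1G11-SOD3 replicate 2. The copy inside the block, at row 151 and column 73, differed by 3.43 in the other direction. On 1G11-mock replicates 1 and 2 that copy was among the spots that the scanner software marked as outliers, and its remaining 1G11-mock value, 9.50 on replicate 3, stands against 13.18, 12.58 and 13.04 in 1G11-SOD3. Of all 60 readings of Gsdmd 9 were so marked and left out, 2 in the block and 7 elsewhere. With spots in the central block left out the Gsdmd difference was -0.77 (limma adjusted p = 0.19). After position adjustment it was -0.85 (limma adjusted p = 0.078), with the outside copies at -1.52 to -0.74 and the central copy at 1.01. The copy at -1.52 was the same one that kept 1 1G11-mock value. The copies are repeated spots of the same RNA and do not add to the 3 arrays per line.

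**Figure D3:**
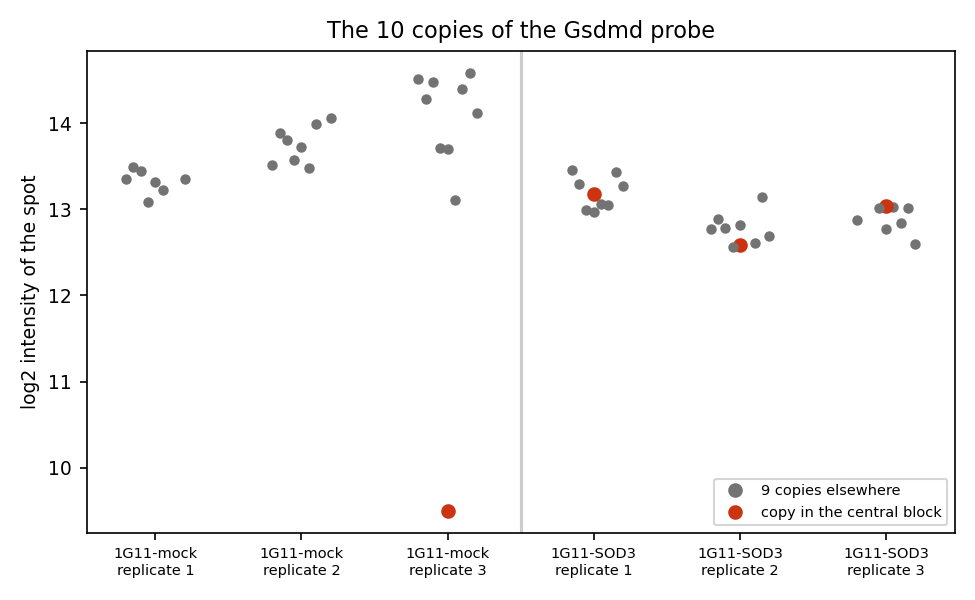
Log2 intensity (y axis) of the 10 copies of the Gsdmd probe on each of the 6 arrays (x axis), with the 9 copies outside the central block in gray and the copy inside it in red; readings marked as outliers are not drawn. The central copy falls to 9.50 on 1G11-mock replicate 3, while the gray points of 1G11-SOD3 lie mostly under those of 1G11-mock.

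The cytokines that the inflammasome pathway releases were not measurably expressed at the transcript level. Il1b, encoding IL-1β, had 10 copies, and 1 of its 60 readings was well above background, on 1G11-SOD3 replicate 3. That reading was marked as an outlier and left out of the values. Averaged over copies Il1b read 6.63, 7.04 and 6.98 in 1G11-mock and 6.96, 7.12 and 6.93 in 1G11-SOD3. Il1a, encoding IL-1α, which needs no inflammasome to be active, read 7.15, 6.91 and 6.94 in 1G11-mock and 7.18, 7.14 and 6.60 in 1G11-SOD3. Il18, encoding IL-18, read 7.50, 7.49 and 8.24 in 1G11-mock and 7.92, 8.12 and 7.56 in 1G11-SOD3. For all 3 the lines overlapped before position adjustment, and no fold is given because neither line was above background. After position adjustment Il18 read 7.25, 7.43 and 7.63 in 1G11-mock and 8.09, 8.38 and 7.90 in 1G11-SOD3, with no overlap. Its adjusted difference was 0.69 (limma adjusted p = 0.13). Il1b no longer overlapped either, at 0.24 (limma adjusted p = 0.54), and Il1a still did, at 0.06 (limma adjusted p = 0.91). These values too come from readings near background.

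Nlrp3 was below that limit by both of its probes. A_52_P650540 read 7.25, 7.38 and 7.38 in 1G11-mock and 6.85, 6.89 and 7.30 in 1G11-SOD3, and A_55_P2273439 read 6.75, 7.53 and 6.94 against 6.78, 6.97 and 6.97. The lines overlapped on both probes.

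Il1rn encodes the IL-1 receptor antagonist, which blocks the receptor for IL-1. It was well above background on 1 array, 1G11-mock replicate 1. Its values were 8.86, 7.38 and 7.70 in 1G11-mock and 7.41, 7.34 and 7.29 in 1G11-SOD3, so a single 1G11-mock array stood out. The difference was -0.63 (95% interval -1.38 to 0.11, limma adjusted p = 0.44) and -0.20 after position adjustment, and it rests on values that on 5 of 6 arrays were not well above background.

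Il1rl1 encodes ST2, the receptor for IL-33, in a membrane-bound and a soluble form. Its 3 probes were above background on no array. The 2 probes outside the central block lay between 6.86 and 7.45 on the 1G11-mock arrays and between 6.85 and 7.81 on the 1G11-SOD3 arrays. The probe in the block, A_55_P2027737, read 7.15, 6.87 and 7.51 in 1G11-mock and 8.03, 7.68 and 7.52 in 1G11-SOD3. Its 1G11-SOD3 arrays all lay above the 1G11-mock arrays, by 0.56 in the mean (limma adjusted p = 0.33). After position adjustment that difference was -0.01, with values of 7.06, 6.95 and 8.42 in 1G11-mock and 7.63, 7.51 and 7.24 in 1G11-SOD3. The adjusted difference thus rests on the raised value of 1G11-mock replicate 3, from a reading not well above background.

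Other genes of the pathway were taken from 5 lists, of which 49 genes with 67 probes were on the array. Of these probes 30, from 24 genes, were well above background on all 6 arrays, and 28 probes were above it on none. Across the lists 3 of the 67 probes were called, 1 higher (Il33) and 2 lower (Irak2 and Txnip). Over the array 2.93% of all probes were called. A lower mean in 1G11-SOD3 was found for 24 of the 30 bright probes, against 60.6% of all bright probes. The 30 had a median difference of -0.36, which was -0.18 after position adjustment. The same median over all bright probes was -0.13 before the adjustment and 0.01 after it.

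Il33, an IL-1 family cytokine stored in the nucleus and released on cell damage, was the 1 ligand of its list above background. It was also the 1 pathway gene called higher. It read 9.94, 8.92 and 10.27 in 1G11-mock and 12.02, 11.44 and 12.21 in 1G11-SOD3, with no overlap. The means were 9.71 ± 0.70 and 11.89 ± 0.40 (SD, n = 3 each), a difference of 2.18 with an SE of 0.35 and a limma adjusted p of 0.0066, or 4.53-fold higher. Its spot lay elsewhere on the array than in the central block, and the position-adjusted difference was 2.27 (limma adjusted p = 0.0039). Il33 was called in all 14 other ways of processing and in all 6 fits with 1 array left out, where it differed by 1.78 to 2.46. The other 5 ligands of that list, which carry the older Il1f names of the IL-36 cytokines, their antagonist and IL-38, were above background on 0 arrays.

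The receptors and decoys were mostly dim. Of 10 genes, 7 were above background on 0 arrays, among them Il1rap, the accessory chain shared by the receptors for IL-1 and IL-33, and Il1r2, a decoy receptor. Il1r1, the signaling receptor for IL-1, differed by 0.51 (limma adjusted p = 0.52) and Sigirr, an inhibitory family member, by -0.28 (limma adjusted p = 0.70). Neither was called. Il18bp, the secreted binding protein of IL-18, was above background on 0 of 3 1G11-mock and on 3 of 3 1G11-SOD3 arrays. Before position adjustment it was at least 1.53-fold higher (limma adjusted p = 0.15), a bound that does not allow for position. Its spot lay in the central block, and its difference was 0.33 after position adjustment.

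Of the genes that carry the signal from the IL-1 receptor, 11 of 13 had a bright probe, in all 17 probes. A lower mean in 1G11-SOD3 was found for 14 of the 17, against 60.6% of all bright probes. The median of the 17 was -0.48, or -0.28 after position adjustment. Irak2, a kinase-like component recruited by Myd88, was the 1 call. It read 12.75, 12.92 and 12.93 in 1G11-mock and 11.54, 11.45 and 11.19 in 1G11-SOD3, with the lines far apart. The difference was -1.48 with an SE of 0.22 and a limma adjusted p of 0.0045, or 2.78-fold lower. After position adjustment it was -0.99 (limma adjusted p = 0.033) and with the processed signal -0.82 (limma adjusted p = 0.069), neither of which passed the call. A further Irak2 probe was above background on no array. The adaptor Myd88 differed by -0.31 (limma adjusted p = 0.68) and Traf6, a ubiquitin ligase of the pathway, by -0.30 (limma adjusted p = 0.59). The 3 bright probes of Irak1, the related kinase, differed by -0.51, -0.41 and 1.07, and the last of these lay in the central block of the array.

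Inflammasome sensors, the adaptor and regulators had 8 bright probes from 8 genes. Of these 8 probes, 7 had a lower mean in 1G11-SOD3, against 60.6% of all bright probes. The median of the 8 was -0.30 (-0.12 after position adjustment). Aim2, Mefv, Naip1, Nlrc4 and Nlrp1b were above background on 0 arrays. Pycard, the adaptor that links sensors to caspase-1, was measured on all arrays and differed by -0.19 (limma adjusted p = 0.84). Nek7, a partner of Nlrp3, differed by -0.29 (limma adjusted p = 0.65).

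Txnip, a thioredoxin-binding protein known to interact with Nlrp3, gave opposite values by its 2 probes. A_55_P2006255 read 10.59, 10.86 and 10.61 in 1G11-mock and 9.72, 9.31 and 9.69 in 1G11-SOD3. It was called, at -1.11 with an SE of 0.23 and a limma adjusted p of 0.024. A_51_P438805, in the central block of the array, read 10.998, 8.547 and 7.753 in 1G11-mock and 12.14, 11.02 and 12.18 in 1G11-SOD3, higher by 2.68 (limma adjusted p = 0.054). After position adjustment the 2 probes differed by -0.90 (limma adjusted p = 0.062) and 0.74 (limma adjusted p = 0.41), and neither was called. The call of A_55_P2006255 was also lost with an offset of 16 (limma adjusted p = 0.054), with a variance trend (0.051) and with no background correction, where the difference of -0.97 was under 2-fold. It was lost too without 1G11-mock replicate 2 (limma adjusted p = 0.097) and without 1G11-SOD3 replicates 1, 2 or 3 (0.063, 0.11 and 0.069). A_51_P438805 passed in 4 settings: with scaling to the 75th percentile at 2.64 (limma adjusted p = 2.7e-04), at 2.68 with dim probes left out (0.046) or the replicate block (0.0085), and at 3.63 without 1G11-mock replicate 1 (9.7e-04).

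Of the gasdermins and the gene of membrane rupture, Gsdme differed by -0.01 (limma adjusted p = 0.99) and Ninj1, which ruptures the membrane late in lytic death, by -0.56 (limma adjusted p = 0.29), and neither was called.

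**Figure D4:**
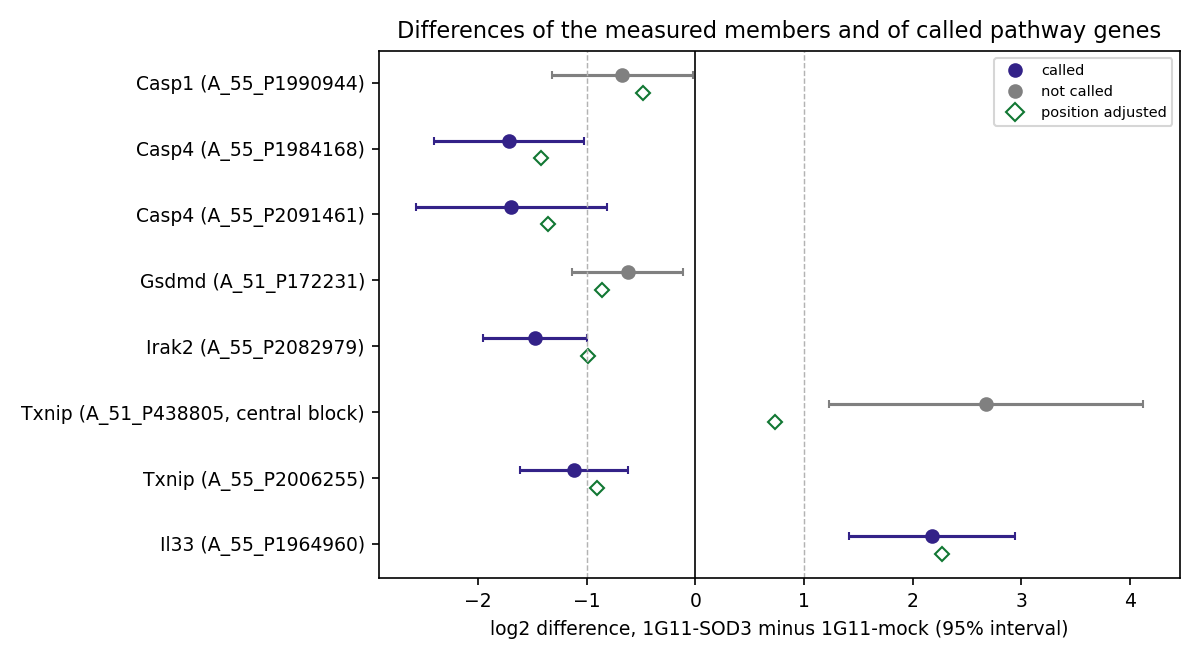
Difference between the lines (x axis, log2, 1G11-SOD3 minus 1G11-mock) for the 4 member probes above background on all 6 arrays and the Irak2, Txnip and Il33 probes (y axis), as circles with unadjusted 95% intervals and, as diamonds, after position adjustment. Dashed lines mark 2-fold. Casp4 and Irak2 lie to the left, Il33 to the right at 2.18, and the 2 Txnip probes on opposite sides.

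**Figure D5:**
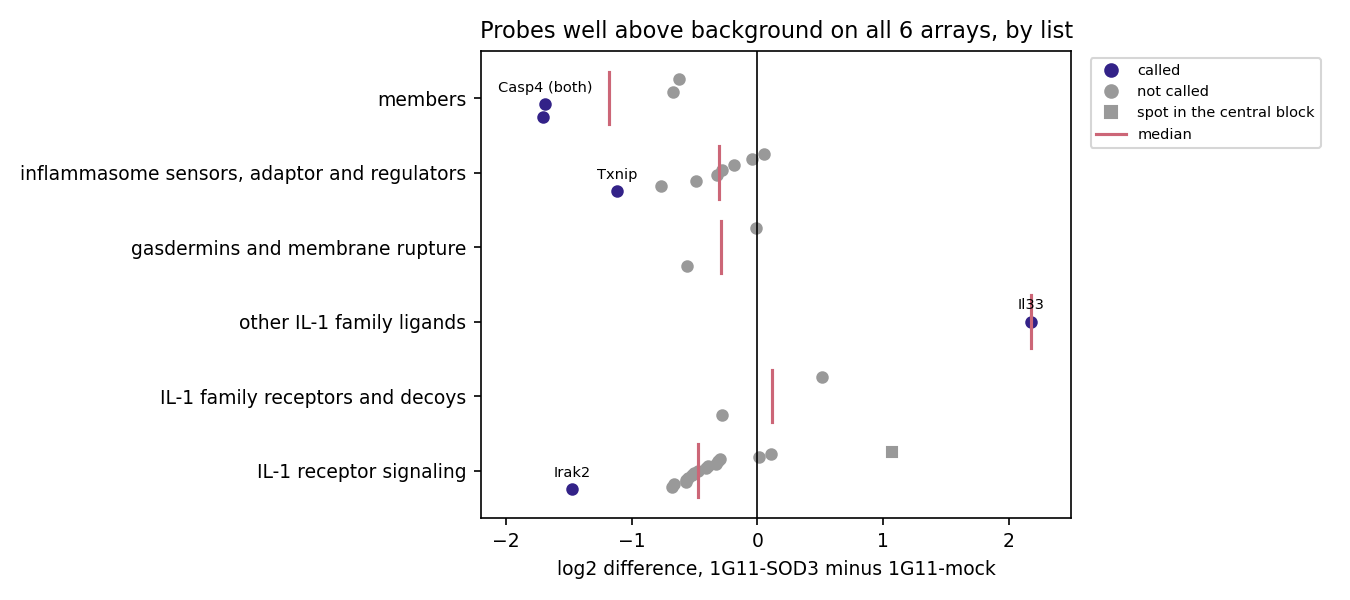
Difference between the lines (x axis, log2) of each probe above background on all 6 arrays, by list (y axis), with the median of each list in red, called probes in dark blue and the spot in the central block of the array as a square. Points of IL-1 receptor signaling lie mostly to the left of 0, and 1 list holds a single probe, Il33.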

How the data were processed

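RNA of 3 1G11-mock and 3 1G11-SOD3 samples, from independent experiments, was hybridized to single-color Agilent arrays. Per the labels and file headers, the deposited scanner files (Agilent Feature Extraction 10.7.3.1) hold a mean and a local background intensity per spot, not normalized between arrays. A further deposited table, with log2 values that the authors had background corrected and quantile normalized (median 7.52 per array), served as an alternative. The 10 genes, the pathway and marker lists and the settings were chosen with earlier results of these data known.

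Mean intensities were background corrected (normexp on all spots, offset of 50), taken to log2, freed of control spots and quantile normalized. Outlier spots were left out and copies of a probe averaged. Genes were named from RefSeq accessions where these matched (27650 of 55681 probes), else by the array's own name or description. limma 3.58.1 in R 4.3.3 gave differences, with calls as defined above. A probe was well above background on an array if at least 50% of its spots were. The bound for a dim probe was set by the lowest probe above background on each array. Named genes are every probe of the 10 genes, Sod3, and each pathway gene with a called probe above background on all arrays of a line; further list genes are named as examples, chosen after their values were seen. The position surface was chosen among 8, by the SD among copies of 198 probes (0.66 without and 0.23 with it). On simulated data with 200 changed probes of 55681, the test found 197 and made 16 false calls. Alternatives were an offset of 16, no background correction, the median pixel in place of the mean, processed signal, scaling to the 75th percentile, cyclic loess, control or outlier spots kept, dim probes left out, a variance trend, the replicate block, the deposited table, the position adjustment, the central block left out, and each array left out in turn. The number of arrays, 3 per line, limits the precision. No measurement column was without a sample. Python 3.11.15 (pandas 2.3.3, numpy 2.4.6, matplotlib 3.10.9) served for tables and plots.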

Additional observations from a re-analysis of the deposited data

How the results depend on the processing

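The direction of Casp1, Casp4, Gsdmd, Il33, Irak2, Sod3 and both Txnip probes was kept under every alternative that was run. The number of member probes called, 2 as reported, was 1 with an offset of 16, no background correction, median pixel intensity, cyclic loess, a variance trend, the deposited table, the position adjustment and the central block of the array left out, and 0 to 1 with 1 array left out. The number of pathway probes called, 3 as reported, was 8 with the processed signal, 5 with scaling to the 75th percentile and 2 to 5 with 1 array left out. Over the array 1629 probes were called, against 1056 with no background correction, 11118 with the processed signal (1200 higher and 9918 lower), 2598 with scaling to the 75th percentile, 842 with the central block of the array left out (299 higher and 543 lower) and 775 to 1794 with 1 array left out. The position adjustment called 1312, of which 471 were higher and 841 lower, where the reported setting called 1040 higher and 589 lower. The median difference of all probes was -0.03, but -0.33 with scaling to the 75th percentile and -0.52 with the processed signal. The cause of these shifts was not tested.

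Same-numbered samples correlated in their deviations at 0.17, 0.22 and 0.09. Differently numbered samples were not compared in this way, so these values cannot decide whether the replicate numbers pair the samples. Replicates 1, 2 and 3 also lay in slide columns 1, 2 and 3 in both lines. The main fit did not pair the samples. With the replicate block, 2252 probes over the array, 2 member probes and 4 pathway probes were called, and the Casp4 probes had limma adjusted p values of 0.0047 and 0.0063. Signal over background limits 10 of the 14 member probes, which were not measured on all 6 arrays.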
